A study of Homo sapiens with 18 samples.

Results

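Bone morphogenetic protein (BMP) signaling was followed through 10 genes in U2OS, an established human osteosarcoma cell line. The genes were selected by symbol from the 25296 genes of the deposited count table and comprised ATOH8, ID1, ID2, ID3, ID4, SMAD6, SMAD7, BAMBI, BMP2 and BMP4. All 10 passed the filter on low counts that left 18226 genes for testing. ATOH8 was chosen from the data, on the difference between its cytarabine responses in the mutant and wild-type DNMT3A lines. Its values in those lines are therefore given as a description, and no call on them counts as a test.

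The lines were made with the empty vector MigR1 (EV), with DNMT3A of wild-type sequence (WT) or with mutant DNMT3A (MUT), all on the U2OS background with its own DNMT3A gene intact as far as the labels say. DNMT3A is a de novo DNA methyltransferase. The series text calls the mutation R882C and the sample labels call it R882H, so the line is named here only as mutant. Each line was sampled untreated (a vehicle control according to the series text) and 24 h after 10 µM cytarabine, a cytidine analogue that is incorporated into DNA and stalls replication. Each of the 6 groups had 3 biological replicates. Each genotype is represented by 1 line, whose clonal or pooled origin is not given in the sources used here, so genotype and line cannot be told apart. In RNA from whole cultures, a change in every cell and a change in the share of cells that express a gene cannot be told apart either.

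BMP ligands such as BMP2 and BMP4 bind serine/threonine kinase receptors, which phosphorylate SMAD1, SMAD5 and SMAD9 (SMAD8). With SMAD4 these enter the nucleus and activate target genes, among which the ID genes are the standard transcriptional readout. ID proteins lack a DNA-binding domain and hold E proteins away from DNA, whereas ATOH8 is a basic helix-loop-helix factor known as a BMP target in endothelium and liver. SMAD6 and SMAD7 are inhibitory SMADs and BAMBI is a decoy receptor without a kinase domain, and all of them are induced by the pathways they dampen. In bone, BMP signaling drives osteoblast differentiation.

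Promoter sequences are shown for ATOH8, ID4 and SMAD6, the members whose cytarabine responses lay farthest apart between MUT and WT cells. Each is the 250 bases before the RefSeq start, read 5′ to 3′ on the gene's strand, at chr2:85753741-85753990, chr6:19837120-19837369 and chr15:66701986-66702235 (GRCh38.p14, plus strand for all). The ATOH8 window lies after the gene start given in the count table (85751344), so it is not upstream of the gene as counted. Capitals mark GGCTCC or its reverse complement GGAGCC, a GC-type motif that SMAD proteins can bind.
ATOH8: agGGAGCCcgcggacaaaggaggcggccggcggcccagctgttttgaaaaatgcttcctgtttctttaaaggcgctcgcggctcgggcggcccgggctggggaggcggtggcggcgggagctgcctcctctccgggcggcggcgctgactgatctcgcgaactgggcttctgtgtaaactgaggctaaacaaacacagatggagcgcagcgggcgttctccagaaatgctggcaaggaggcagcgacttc
ID4: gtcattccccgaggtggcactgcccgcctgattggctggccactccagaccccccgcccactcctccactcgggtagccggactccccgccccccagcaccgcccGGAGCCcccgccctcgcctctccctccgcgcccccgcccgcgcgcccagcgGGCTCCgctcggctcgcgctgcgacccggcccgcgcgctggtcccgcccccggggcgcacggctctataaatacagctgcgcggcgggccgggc
SMAD6: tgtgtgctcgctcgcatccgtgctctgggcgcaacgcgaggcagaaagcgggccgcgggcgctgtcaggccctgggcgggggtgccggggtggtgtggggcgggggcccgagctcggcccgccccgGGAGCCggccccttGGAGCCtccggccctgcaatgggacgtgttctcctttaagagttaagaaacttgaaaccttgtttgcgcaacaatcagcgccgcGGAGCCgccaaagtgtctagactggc
The ATOH8 window held 1 copy of the motif, the ID4 window 2 and the SMAD6 window 3. Of all 34943 RefSeq windows of this length, 30.7% held at least 1 copy. RefSeq windows were matched for 9 of the 10 members, 13 windows in all, and 8 of these held the motif. The palindrome GGCGCC occurred in 2 of the 13 (BAMBI and 1 of the BMP4 windows) and in 16.4% of all windows. The E-box CANNTG, the element bound by E proteins and other basic helix-loop-helix factors, occurred in 6 of the 13 and in 61.8% of all windows. The 3 windows printed were rich in CpG, the dinucleotide that DNMT3A methylates, with 24 CpG in ATOH8, 34 in ID4 and 25 in SMAD6 against a median of 11 over all windows. The highest member window was BAMBI with 41 and the lowest was 1 of the SMAD7 windows with 2. These matches describe the letters and show neither binding nor methylation, which were not measured.

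The libraries held 15.4 to 21.9 M estimated counts (M, 1000000). DNMT3A, which checks the labels, ran from 26.2 to 27.5 counts per 1000000 counts (CPM) in untreated EV libraries, from 129 to 139 in untreated WT and at 500, 615 and 254 CPM in untreated MUT replicates 1, 2 and 3. The untreated MUT replicates also lay apart over all genes, with a biological coefficient of variation of 0.216 against 0.0398 in untreated EV and in untreated WT, and member values that rest on them are also given with 1 of them left out where that changes a call. Apart from that of BMPR1A, the calls in MUT cells of the further pathway genes named below were kept without any 1 of them. The mesenchymal and osteoblast lineage markers VIM, SPARC, COL1A1, RUNX2 and ALPL were present in every library. COL1A2 was at 0.292 to 8.11 CPM, BGLAP was too low to be tested, and the count table had no gene under the symbol SP7. The blood marker PTPRC stayed at or below 1.41 CPM, the epithelial marker EPCAM at or below 4.01 CPM, and the endothelial marker PECAM1 at or below 0.418 CPM.

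Members differed widely in abundance. On the scale of CPM per kilobase of exon, the group means of ID1 (136 to 176) and ID3 (84.6 to 139) lay above at least 97.4% of the 15684 tested genes with a length. BMP4 followed at 15.7 to 30.3 and SMAD7 at 9.12 to 12.8. ID2, ID4, SMAD6, BAMBI and BMP2 lay between 2.06 and 5.44. ATOH8 was the lowest member at 0.172 to 0.936, with 21 to 219 counts in a library.

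ATOH8 (chromosome 2, 85751344 to 85788067, plus strand) gave 5.84, 4.44 and 4.30 CPM in the untreated EV replicates and 4.16, 4.31 and 5.64 CPM in the treated ones. These ranges overlapped, and the log2 fold change was -0.04 (SE 0.204, edgeR adjusted p = 0.882). In WT cells it gave 3.58, 3.23 and 2.86 CPM untreated and 0.974, 1.78 and 2.03 CPM treated. Every treated WT library lay below every untreated one, with a log2 fold change of -1.02 (SE 0.232). In MUT cells it gave 6.72, 5.98 and 6.80 CPM untreated and 9.23, 7.33 and 9.54 CPM treated. Every treated MUT library lay above every untreated one, with a log2 fold change of 0.42 (SE 0.193), or 0.33 to 0.45 with 1 untreated MUT library left out. Such separation was common. Treated and untreated libraries did not overlap for 58.7% of all tested genes in EV, 65.3% in WT and 56.6% in MUT.

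The order of the ATOH8 group means was treated MUT (8.70 ± 1.20 CPM, SD, n = 3), untreated MUT (6.50 ± 0.454), untreated EV (4.86 ± 0.851), treated EV (4.70 ± 0.819), untreated WT (3.22 ± 0.360) and treated WT (1.60 ± 0.553). The 2 EV groups overlapped and the other neighbours in this order did not, although the lowest untreated MUT library (5.98 CPM) stood close to the highest untreated EV library (5.84 CPM). By group means the lines were thus already ordered MUT, EV, WT before treatment, with a log2 difference of 1.01 (SE 0.207) between untreated MUT and WT. The steps from untreated EV were 0.42 (SE 0.202) for MUT and -0.59 (SE 0.211) for WT, and neither passed the threshold. The difference between the MUT and WT cytarabine effects, the value that chose the gene, was 1.44 on the log2 scale (SE 0.301). From the EV effect, the MUT effect differed by 0.46 (SE 0.281) and the WT effect by -0.98 (SE 0.309), and neither passed the threshold.

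**Figure D1:**
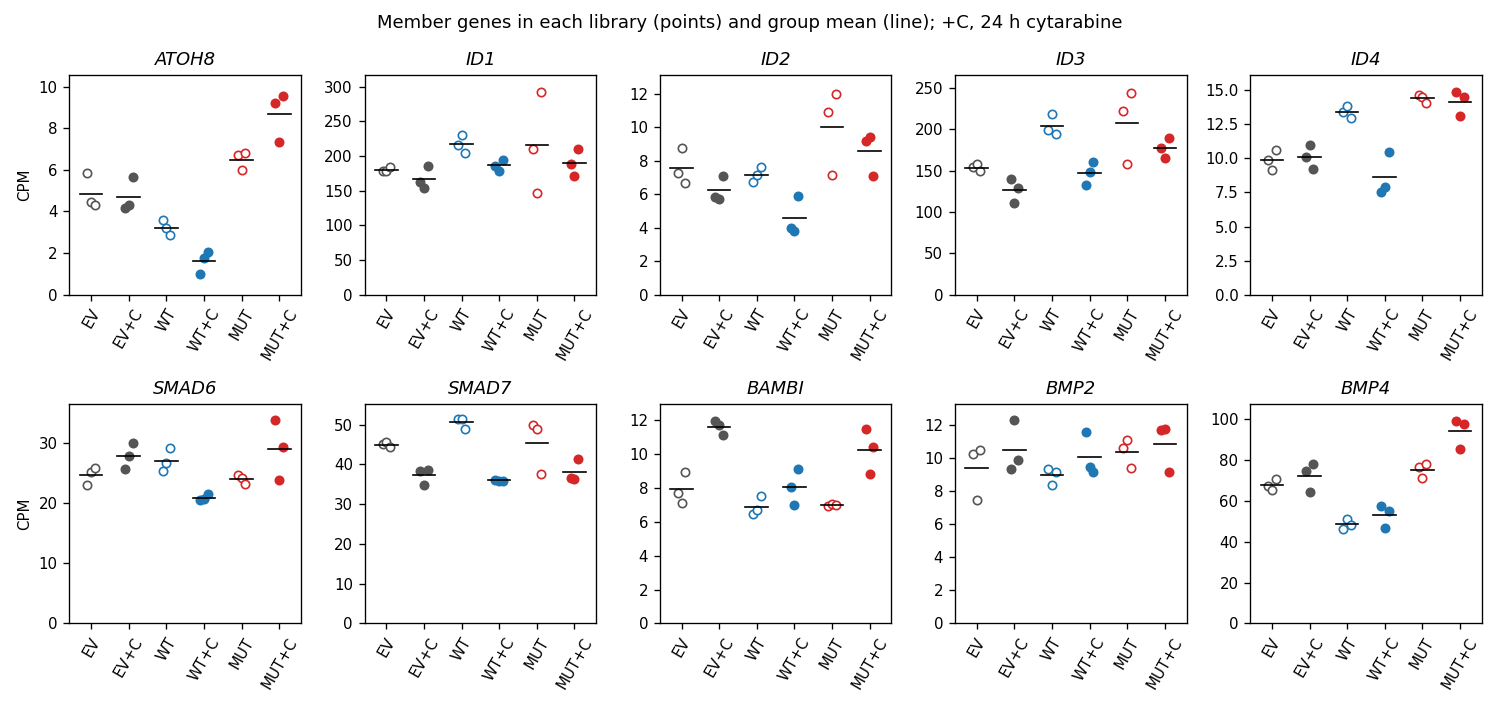
Level of each of the 10 genes in every library, in CPM on a linear axis from 0 (open points untreated, filled points 24 h cytarabine, marked +C; horizontal lines are group means; grey EV, blue WT, red MUT). ATOH8 is lower after treatment in WT libraries and higher in MUT libraries, while ID1 to ID3 spread widely among the untreated MUT libraries.

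ID4 and ID3 fell under cytarabine in WT cells, as did ID2. ID4 (chromosome 6, 19837386 to 19840685, plus strand) went from 13.4, 13.8 and 13.0 CPM in untreated WT libraries to 7.56, 7.89 and 10.5 CPM in treated ones. Its treated WT values overlapped those of EV cells, which had 9.87, 9.17 and 10.6 CPM untreated and 10.1, 11.0 and 9.19 CPM treated. In MUT cells ID4 stood at 14.6, 14.5 and 14.0 CPM untreated and 14.9, 13.1 and 14.5 CPM treated. The log2 fold change was -0.63 in WT (SE 0.118, edgeR adjusted p = 0.000186), 0.02 in EV (SE 0.120, adjusted p = 0.888) and -0.03 in MUT (SE 0.114, adjusted p = 0.852). The MUT and WT effects differed by 0.60 (SE 0.164, 95% interval 0.26 to 0.94, adjusted p = 0.0811), which missed the threshold. It was called in 2 of 24 alternatives, DESeq2 and the fit without treated WT replicate 3 (edgeR adjusted p = 0.0342). An antisense gene, AL022068.1, overlaps ID4 and had 6 to 36 counts per library, and whether counting used strand is not given in the sources used here.

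ID3 (chromosome 1, 23557918 to 23559795, minus strand) went from 199, 218 and 194 CPM to 133, 148 and 160 CPM in WT cells. The 2 groups did not overlap, and the log2 fold change was -0.47 (SE 0.120, edgeR adjusted p = 0.00283). In EV cells it went from 154, 158 and 149 CPM to 140, 110 and 129 CPM, which missed the threshold (log2 fold change -0.28, SE 0.121, adjusted p = 0.0633) but passed it without untreated MUT replicate 2 or 3, which share the estimate of spread (adjusted p = 0.0114 and 0.0301). It was also called with the authors' library factors, DESeq2, the EV groups alone and without treated EV replicate 1, making 6 of 24 alternatives. Untreated MUT libraries ranged from 158 to 244 CPM and enclosed the treated ones at 166 to 190 CPM. The MUT change of -0.23 (SE 0.120, adjusted p = 0.11) became -0.43 (adjusted p = 0.000657) without untreated MUT replicate 2. It was also called with the authors' library factors and with DESeq2, under which ID3 was called lower in all 3 lines. The MUT and WT effects on ID3 differed by 0.24 (SE 0.169, 95% interval -0.11 to 0.60, adjusted p = 0.525).

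ID2 (chromosome 2, 8678845 to 8684454, plus strand) went from 6.72, 7.14 and 7.64 CPM to 3.99, 3.78 and 5.90 CPM in WT cells. The log2 fold change was -0.65 (SE 0.199, edgeR adjusted p = 0.0106), and the adjusted p rose to 0.0551 without treated WT replicate 1 and 0.0568 without treated WT replicate 2. The ranges overlapped in EV cells (6.70 to 8.76 CPM untreated, 5.74 to 7.10 treated) and in MUT cells (7.17 to 12.0 untreated, 7.10 to 9.43 treated). The changes there were -0.28 (adjusted p = 0.255) and -0.23 (adjusted p = 0.304), the second reaching -0.46 (adjusted p = 0.0304) without untreated MUT replicate 2. ID2-AS1, antisense to ID2, had at most 9 counts in a library.

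ID1 (chromosome 20, 31605283 to 31606516, plus strand), the most abundant member, passed the threshold in no cytarabine comparison with all libraries in the fit. Its levels ran from 178 to 185 CPM in untreated and 154 to 185 CPM in treated EV libraries, and from 204 to 230 CPM and 178 to 195 CPM in WT. In MUT the untreated replicates gave 209, 146 and 292 CPM and the treated ones 189, 172 and 210 CPM. The log2 fold changes were -0.11 in EV, -0.22 in WT and -0.18 in MUT, with edgeR adjusted p of 0.601, 0.246 and 0.324 and 95% intervals reaching down to -0.43, -0.54 and -0.50. Without untreated MUT replicate 3 the MUT change was 0.07 (adjusted p = 0.623), and without replicate 2 it was -0.44 and passed the threshold (adjusted p = 0.00225). A fit of the WT groups alone called the WT change (edgeR adjusted p = 0.000257). The intervals therefore leave room for falls of the size seen for ID3 in the same line.

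SMAD6, which acts mainly on BMP receptor signaling, fell in WT cells and rose in MUT cells. The gene (chromosome 15, 66702228 to 66782849, plus strand) went from 25.3, 26.7 and 29.1 CPM to 20.5, 20.8 and 21.5 CPM in WT cells, without overlap. In MUT cells it went from 24.7, 24.2 and 23.1 CPM to 33.8, 23.9 and 29.4 CPM, with 1 treated library inside the untreated range. In EV cells it went from 23.0, 25.2 and 25.9 CPM to 25.7, 27.8 and 30.0 CPM. The log2 fold change was -0.37 in WT (SE 0.104, edgeR adjusted p = 0.00596), 0.27 in MUT (SE 0.103, adjusted p = 0.0295) and 0.17 in EV (SE 0.104, adjusted p = 0.182).

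The MUT and WT effects on SMAD6 differed by 0.64 (SE 0.146, 95% interval 0.34 to 0.95, edgeR adjusted p = 0.0378), and the WT and EV effects by -0.54 (SE 0.147, adjusted p = 0.174). The MUT and EV effects were not shown to differ (0.10, 95% interval -0.20 to 0.41, edgeR adjusted p = 0.782). The MUT minus WT call held in 10 of 24 alternative analyses, among which the difference stayed between 0.52 and 0.77 and the adjusted p ran from 0.00887 to 0.115. Leaving out 1 library ended it for any untreated EV library, any WT library, untreated MUT replicate 3 (0.59, adjusted p = 0.0515) and treated MUT replicates 1 (0.52, adjusted p = 0.106) and 3, and a fit of the compared groups alone or without the low-count filter ended it too (adjusted p = 0.0953 and 0.0504). The call of the rise within MUT cells held in 15 of the 24. It was lost under DESeq2 (0.23, adjusted p = 0.0678), the authors' library factors (0.19, adjusted p = 0.123), no low-count filter (adjusted p = 0.0521) and a fit of the MUT groups alone (adjusted p = 0.134). Leaving out 1 library ended it for untreated WT replicate 2 (edgeR adjusted p = 0.0673), untreated MUT replicates 2 (0.24, adjusted p = 0.0803) and 3 (0.22, adjusted p = 0.109), and treated MUT replicates 1 (0.15, adjusted p = 0.222) and 3 (adjusted p = 0.0708).

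SMAD7 (chromosome 18, 48919853 to 48952053, minus strand), which dampens both BMP and TGF-beta signaling, fell in every line. It went from 51.3, 51.3 and 49.0 CPM to 36.1, 35.9 and 35.9 CPM in WT cells, and from 45.0, 45.6 and 44.3 CPM to 38.4, 34.8 and 38.7 CPM in EV cells, without overlap in either line. In MUT cells it went from 49.9, 48.9 and 37.5 CPM to 36.5, 36.3 and 41.5 CPM, where untreated replicate 3 lay among the treated libraries. The log2 fold changes were -0.49 in WT (SE 0.0880, edgeR adjusted p = 0.000125), -0.27 in EV (SE 0.0887, adjusted p = 0.0168) and -0.25 in MUT (SE 0.0880, adjusted p = 0.0191). The EV call was lost without treated EV replicate 2 (adjusted p = 0.069), and the MUT call in a fit of the MUT groups alone (adjusted p = 0.122) and without untreated MUT replicate 1 (-0.18, adjusted p = 0.112), treated MUT replicate 1 or treated MUT replicate 2. Differences between lines did not pass the threshold, the largest being 0.24 for MUT minus WT (95% interval -0.02 to 0.50, adjusted p = 0.375).

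BAMBI (chromosome 10, 28677342 to 28682940, plus strand) rose in EV and MUT cells. EV libraries went from 7.71, 7.13 and 8.98 CPM to 12.0, 11.7 and 11.2 CPM, and MUT libraries from 6.92, 7.04 and 7.02 CPM to 11.5, 8.81 and 10.4 CPM, without overlap in either line. The log2 fold change was 0.55 in both lines (SE 0.128 and 0.129, edgeR adjusted p = 0.00144 in EV and 0.00123 in MUT). Without 1 untreated MUT library the MUT value was 0.52 to 0.54 (adjusted p of 0.00496 to 0.0057). WT libraries went from 6.47, 6.72 and 7.53 CPM to 8.07, 7.03 and 9.14 CPM, and the change of 0.23 (SE 0.130, adjusted p = 0.156) missed the threshold. The MUT and WT effects were not shown to differ, with a difference of 0.32 (95% interval -0.06 to 0.71, adjusted p = 0.418).

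Of the ligands, BMP4 (chromosome 14, 53949736 to 53958762, minus strand) differed between lines before treatment. It gave 67.2, 65.4 and 70.3 CPM in untreated EV libraries, 46.3, 51.1 and 48.2 CPM in untreated WT and 76.6, 71.1 and 77.8 CPM in untreated MUT, and none of these groups overlapped. Of all tested genes, 40.3% did not overlap between untreated WT and EV, 30.4% between MUT and EV and 31.9% between MUT and WT. The log2 difference from EV was -0.48 in WT (SE 0.0873, edgeR adjusted p = 0.000998) and 0.15 in MUT (SE 0.0862, adjusted p = 0.23), and untreated MUT exceeded untreated WT by 0.63 (SE 0.0870, adjusted p = 4.71e-05). After cytarabine BMP4 stood at 98.6, 85.2 and 97.5 CPM in MUT cells, a rise of 0.32 (SE 0.0850, adjusted p = 0.00353). With 1 untreated MUT library left out this rise was 0.24 to 0.33 (edgeR adjusted p of 0.00708 to 0.0345) and the untreated MUT minus WT difference 0.62 to 0.71 (2.84e-05 to 0.000227). Treated EV libraries stood at 74.7, 64.2 and 77.7 CPM and treated WT libraries at 57.6, 46.9 and 55.0 CPM, with changes of 0.10 (adjusted p = 0.38) and 0.13 (adjusted p = 0.224). The MUT effect differed from the EV effect by 0.22 (95% interval -0.03 to 0.48, adjusted p = 0.386) and from the WT effect by 0.19 (adjusted p = 0.488). Mean untreated levels of BMP4 and ATOH8 thus had the same order of lines, MUT above EV above WT, although MUT minus EV passed the threshold for neither gene.

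BMP2 (chromosome 20, 6767664 to 6780281, plus strand) lay between 7.48 and 12.3 CPM in all 18 libraries. Its changes in EV, WT and MUT cells (0.15, 0.17 and 0.07 on the log2 scale) had edgeR adjusted p of 0.421, 0.363 and 0.718, with standard errors of 0.147 to 0.150.

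**Figure D2:**
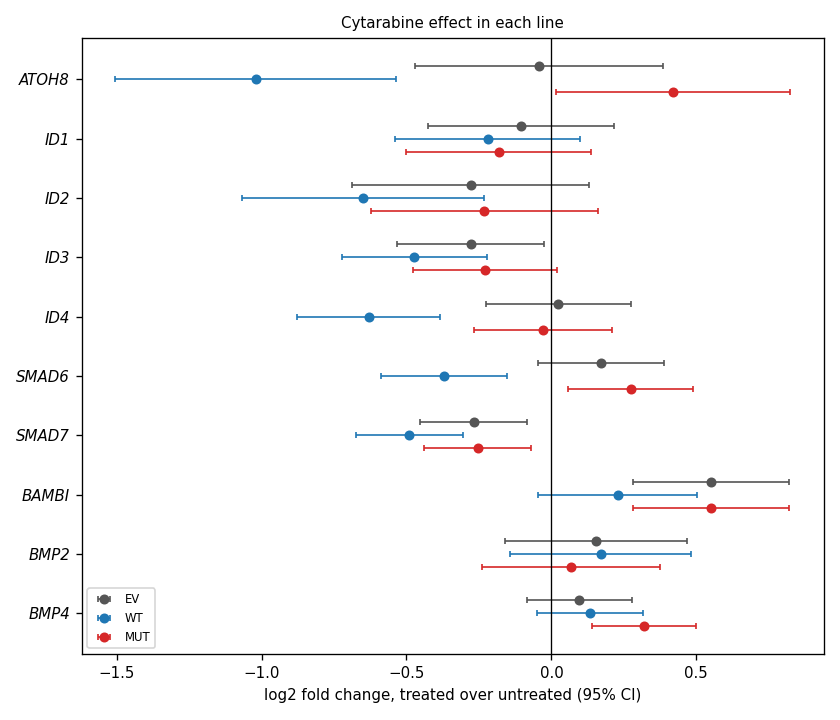
Cytarabine effect on each gene as a log2 fold change of treated over untreated cells (points) with its 95% confidence interval (bars), in EV (grey), WT (blue) and MUT (red) cells. The WT points for ID2, ID3, ID4, SMAD6 and SMAD7 lie below 0 with their intervals, while BAMBI lies above 0 in EV and MUT.

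Counts are given over the 9 members beside ATOH8, which was chosen on its responses in WT and MUT cells. Cytarabine changed 2 of 9 in EV cells (BAMBI higher, SMAD7 lower), where 49.1% of all tested genes were called (26.1% higher, 22.9% lower). In WT cells 5 of 9 were called, all of them lower, against 49.0% of all genes (26.3% higher, 22.7% lower). In MUT cells 4 of 9 were called (SMAD6, BAMBI and BMP4 higher, SMAD7 lower), against 56.3% of all genes (30.4% higher, 25.9% lower). The median log2 fold change of the 9 members was 0.02 in EV, -0.37 in WT and -0.03 in MUT, beside medians of 0.05, 0.03 and 0.05 over all genes. Comparisons that involve the same line share that line's libraries.

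The differences between cytarabine effects were tested directly. For MUT minus WT, 1 of the 9 members was called, SMAD6, against 1.00% of all genes, and 8 of the 9 had a positive difference. The share of all genes with a positive difference was not computed. The median difference was -0.0023 over all genes and 0.24 over the 9 members. The 9 members share the same libraries, so their directions are not independent. The EV comparisons gave 0 of 9 members for MUT minus EV, where 0.214% of all genes were called, and 0 of 9 for WT minus EV, where 0.285% were called. By edgeR at an unadjusted p under 0.05, MUT minus EV had 0 of the 9 members, beside 2882 of all 18226 genes. WT minus EV had 2 (ID4 at -0.65, SE 0.168, adjusted p = 0.143, and SMAD6), beside 1815 genes. MUT minus WT also had 2 (ID4 and SMAD6), beside 2810 genes. DESeq2 called 0 members in MUT minus EV and 0 in WT minus EV. In MUT minus WT it called ID4, SMAD6 and ATOH8, the gene chosen on this difference, beside 795 of all 18226 genes. The MUT and EV effects on ID4 differed by -0.05 (95% interval -0.40 to 0.29) and those on BAMBI by 0.0011 (95% interval -0.36 to 0.36), intervals that still hold differences of either sign.

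Without treatment, ID3 and ID4 were higher in both DNMT3A lines than in EV cells. ID4 exceeded EV by 0.54 in MUT (SE 0.118, edgeR adjusted p = 0.00309, at most 0.00888 with 1 untreated MUT library left out) and by 0.44 in WT (SE 0.118, adjusted p = 0.0194), with no overlap between libraries of the compared lines. ID3 exceeded EV by 0.44 in MUT (SE 0.120, adjusted p = 0.0149) and by 0.41 in WT (SE 0.120, adjusted p = 0.0317). In MUT minus EV these were the 2 of 9 members called, against 19.9% of all genes (9.88% higher, 10% lower). In WT minus EV 3 of 9 were called with BMP4, against 11.7% (4.3% higher, 7.36% lower). Both WT calls depended on single libraries, the adjusted p for ID3 reaching 0.0576 to 0.15 when any 1 untreated EV or WT library was left out and that for ID4 rising above the threshold, to at most 0.0964, without untreated EV replicate 1 or 2 or untreated WT replicate 1 or 2. The ID3 call in MUT was lost without untreated EV replicate 3 (adjusted p = 0.0611) and kept without any 1 of the untreated MUT libraries. Leaving out untreated MUT replicate 2 added calls for ID2, higher in MUT than in EV (0.62, adjusted p = 0.0146) and than in WT (0.71, adjusted p = 0.0056), and for ID1, higher in MUT than in EV (0.51, adjusted p = 0.00265). In MUT minus WT, 1 of 9 members was called (BMP4), against 21.2% of all genes.

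**Figure D3:**
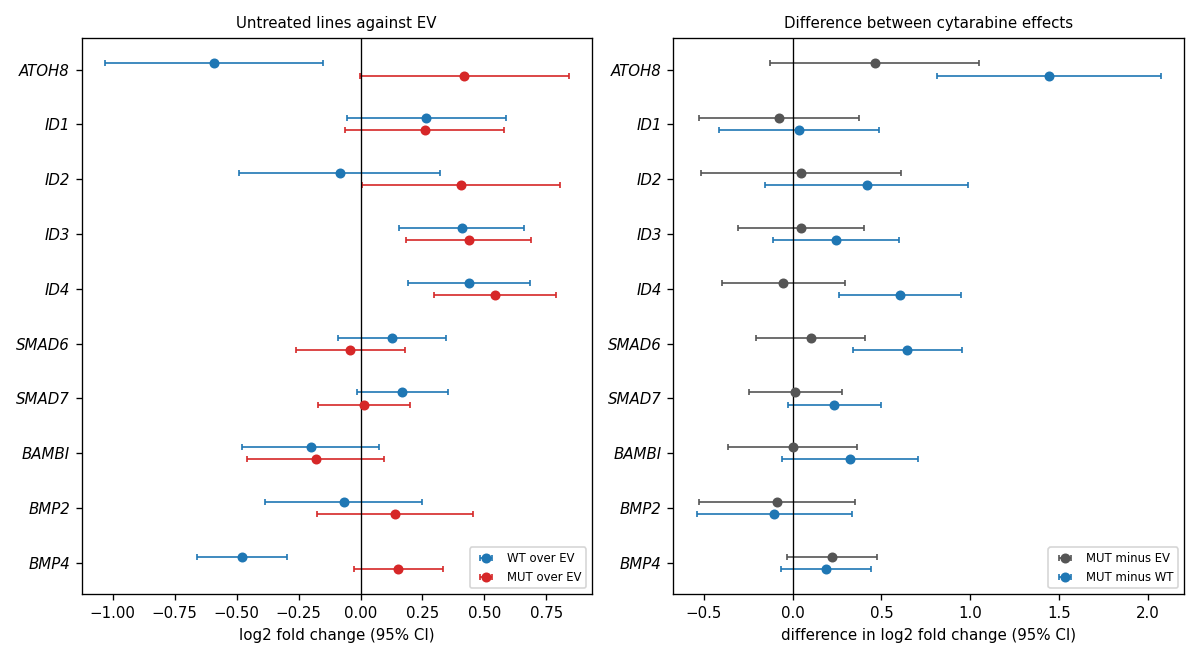
Left, log2 fold change of untreated WT (blue) and MUT (red) cells over untreated EV cells; right, difference of the MUT cytarabine effect from the EV effect (grey) and from the WT effect (blue), with 95% confidence intervals as bars. ID3 and ID4 lie above EV in both lines, and BMP4 lies below EV in WT; on the right, the differences from the WT effect are 0.64 for SMAD6 and 0.60 for ID4.

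The wider pathway was described through 8 lists of BMP and TGF-beta genes, of which 71 tested genes were not among the 10 members. Cytarabine raised 20 of these 71 and lowered 15 in EV cells (49.3% called), raised 26 and lowered 19 in WT cells (63.4%) and raised 27 and lowered 13 in MUT cells (56.3%), shares that can be read against the 49.1%, 49.0% and 56.3% of all genes. Their median log2 fold change was 0.02 in EV, 0.03 in WT and 0.14 in MUT. For the counts by direction here and below, 26.1%, 26.3% and 30.4% of all genes were higher in EV, WT and MUT. The shares called lower were 22.9%, 22.7% and 25.9%.

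Among the 6 other BMP ligands tested, 2 were raised in EV cells, where 0 were lowered. WT cells had 3 higher and 2 lower, and MUT cells 2 higher and 2 lower. BMP7, a ligand of the same family that is active in bone and kidney, rose in every line. EV means went from 20.9 ± 1.02 CPM untreated to 46.3 ± 3.20 treated (SD, n = 3), and the other lines from 13.7 ± 1.72 to 40.0 ± 0.995 in WT and from 16.4 ± 2.90 to 37.9 ± 6.78 in MUT. Its log2 fold changes were 1.15, 1.54 and 1.21 (edgeR adjusted p = 4.07e-07, 1.41e-08 and 1.65e-07). BMP6 fell in WT (-0.63, adjusted p = 0.000436) and MUT (-0.48, adjusted p = 0.00259) and was at -0.02 in EV (adjusted p = 0.906).

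Receptors and coreceptors (11 tested) rose in 3, 3 and 6 cases and fell in 2, 3 and 2 cases in EV, WT and MUT. The coreceptors RGMA and RGMB, membrane-anchored proteins that bind BMP ligands, moved in opposite directions. RGMA rose by 0.90, 1.53 and 1.11 in EV, WT and MUT (edgeR adjusted p = 1.98e-06, 2.41e-09 and 1.47e-07), and RGMB fell by 0.71, 0.59 and 0.38 (adjusted p = 9.13e-07, 5.82e-06 and 0.000537). The type I receptor gene BMPR1B fell by 0.59, 0.61 and 0.51 on the same scale (adjusted p = 0.0028, 0.0021 and 0.00623). Of the 7 SMADs and nuclear partners, 2 rose and 1 fell in EV and in WT, and 4 rose in MUT. SMAD9, a receptor-activated SMAD, rose by 0.66, 0.49 and 0.75 (adjusted p = 0.000383, 0.00421 and 5.62e-05).

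Secreted antagonists and modulators (13 tested) rose in 7, 9 and 6 cases and fell in 2 cases in each line. NOG and CHRD encode noggin and chordin, which both bind BMP ligands outside the cell, yet they moved oppositely. Untreated and treated EV cells had 103 ± 4.61 and 45.4 ± 0.0693 CPM of NOG, which went from 130 ± 5.38 to 51.1 ± 1.43 in WT and from 134 ± 19.5 to 61.7 ± 1.96 in MUT (SD, n = 3), and no treated library overlapped an untreated one of its line. Its log2 fold changes were -1.19, -1.35 and -1.11 (edgeR adjusted p = 1.46e-09, 2.15e-10 and 1.35e-09). CHRD stood at 5.43 ± 0.420 CPM in untreated and 19.8 ± 3.10 in treated EV cells, and went from 4.50 ± 0.261 to 14.0 ± 2.17 in WT and from 3.65 ± 0.931 to 18.3 ± 3.16 in MUT, with log2 fold changes of 1.87, 1.64 and 2.31 (adjusted p = 5.25e-08, 3.3e-07 and 3.59e-09). FST, which encodes the activin and BMP antagonist follistatin, rose by 0.34, 0.49 and 0.82 (adjusted p = 0.00128, 4.57e-05 and 6.29e-08).

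**Figure D4:**
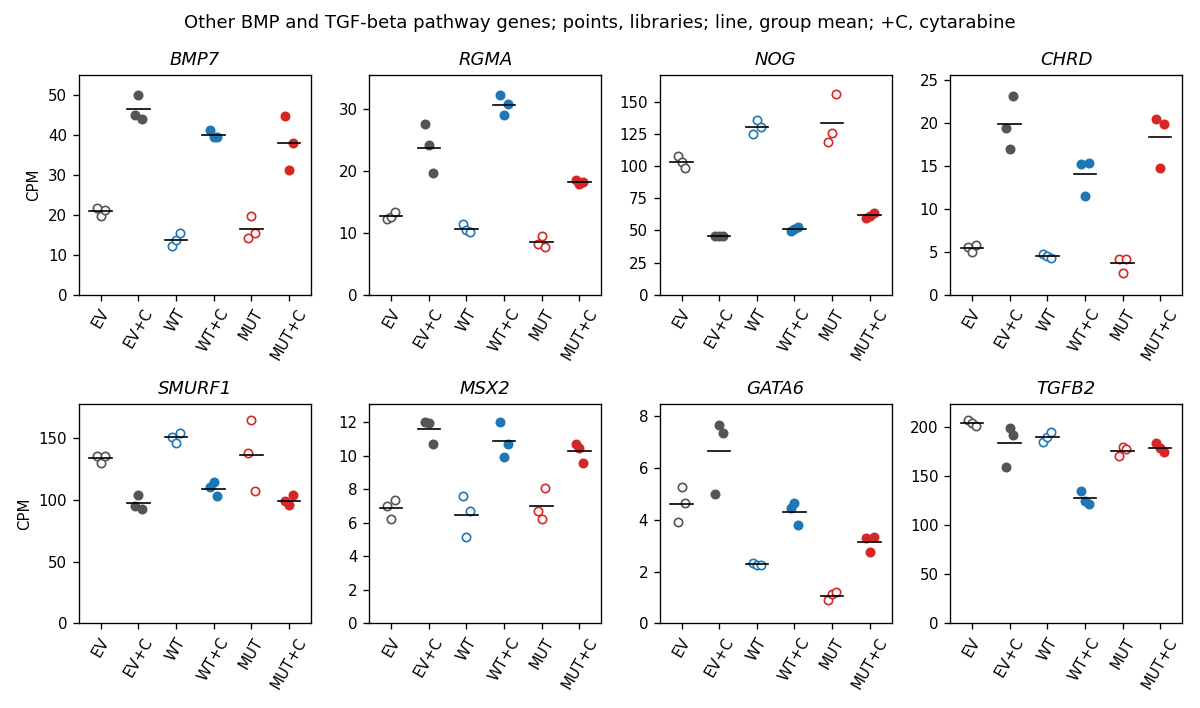
Level of 8 further pathway genes in every library, in CPM on linear axes from 0 (open points untreated, filled points 24 h cytarabine, marked +C; horizontal lines are group means; grey EV, blue WT, red MUT). NOG falls and BMP7, RGMA and CHRD rise in all 3 lines, while TGFB2 falls in WT libraries.

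Of the 8 intracellular brakes beside SMAD6, SMAD7 and BAMBI, 5 fell in EV, 3 fell in WT, and 3 fell and 1 rose in MUT. SMURF1, a ubiquitin ligase that targets BMP SMADs, fell by 0.46, 0.47 and 0.45 on the log2 scale (edgeR adjusted p = 0.000969, 0.000849 and 0.000901). TOB1, a repressor of BMP SMADs in osteoblasts, was the 1 that rose in MUT (0.51, adjusted p = 0.000343), with 0.08 in EV (adjusted p = 0.563) and 0.17 in WT (adjusted p = 0.186).

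Of the 8 further BMP targets beside ATOH8 and the ID genes, 4 rose in EV, 6 in WT and 4 in MUT, and 0 were called lower in any line. Of the ID genes, ID2, ID3 and ID4 fell in WT. MSX2, a homeobox factor induced by BMP in bone, rose by 0.75, 0.74 and 0.55 (edgeR adjusted p = 0.00019, 0.00019 and 0.00244). GATA6, a zinc finger factor, rose in each line. EV cells had 4.62 ± 0.674 CPM untreated and 6.67 ± 1.47 treated, and the gene went from 2.29 ± 0.0523 to 4.31 ± 0.433 in WT and from 1.08 ± 0.156 to 3.14 ± 0.318 in MUT (SD, n = 3), with log2 fold changes of 0.53, 0.91 and 1.55 (adjusted p = 0.0204, 0.000659 and 5.95e-06). Its EV call was lost without untreated EV replicate 1 or treated EV replicates 2 or 3, and its MUT and EV effects differed by 1.02 (SE 0.283, adjusted p = 0.115), short of the threshold.

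The E proteins, the partners that ID proteins sequester, numbered 3, and 2 of them fell in EV and in WT and 1 in MUT. TCF3 fell by 0.43, 0.46 and 0.36 in EV, WT and MUT (edgeR adjusted p = 8.58e-06, 4.02e-06 and 5.19e-05). TCF4 fell by 0.54 and 0.49 in EV and WT (adjusted p = 3.01e-05 and 9.1e-05) and was at -0.12 in MUT (adjusted p = 0.251), with a MUT minus WT difference of 0.37 (adjusted p = 0.133).

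In the TGF-beta branch (15 tested), 2, 3 and 4 genes rose and 3, 6 and 3 fell in EV, WT and MUT. LTBP3, which stores latent TGF-beta in the matrix, rose by 1.02, 0.73 and 1.03 (edgeR adjusted p = 9.49e-09, 5.08e-07 and 4.45e-09). Among all 71 further genes the tests of differences between cytarabine effects called 1, TGFB2, in MUT minus WT and 0 in each of the other differences. TGFB2, a TGF-beta ligand, went from 184, 190 and 195 CPM to 135, 125 and 122 CPM in WT cells (log2 fold change -0.58, SE 0.0720, adjusted p = 2.09e-06). In MUT cells it went from 170, 179 and 177 CPM to 184, 178 and 175 CPM (0.03, SE 0.0716, adjusted p = 0.762), and in EV cells from 207, 204 and 201 CPM to 159, 198 and 192 CPM (-0.15, SE 0.0716, adjusted p = 0.0816). The MUT and WT effects differed by 0.60 (SE 0.101, 95% interval 0.39 to 0.82, adjusted p = 0.00737), and the call was kept in every alternative run.

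Without treatment, 8 of the 71 further genes were higher and 11 lower in MUT than in EV (26.8% called, against 19.9% of all genes), 9 higher and 7 lower in WT than in EV (22.5%, against 11.7%), and 7 higher and 17 lower in MUT than in WT (33.8%, against 21.2%).

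The genes whose log2 CPM followed that of ATOH8 most closely over the 18 libraries, among 13681 genes of at least 1 in mean log2 CPM, were RAP2A (Pearson r = 0.89), GPSM2 (0.88), MXRA8 (0.88), SMARCD2 (0.88) and LAYN (0.88). These are descriptions over libraries that share 6 groups. MXRA8 had group means of 27.1 and 35.1 CPM in untreated and treated EV cells, 12.3 and 11.0 in WT and 52.3 and 62.0 in MUT. By untreated group means all of these genes had the order of lines of ATOH8, MUT above EV above WT. Picking them by likeness to ATOH8 favours that order. For MXRA8 the MUT and WT cytarabine effects differed by 0.41 (SE 0.186), given as a description with no test.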

How the data were processed

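Total RNA of 18 U2OS cultures (6 groups of 3, plated as biological triplicates per the labels) was sequenced with the NEBNext Ultra kit per the labels' protocols. STAR 2.6.1d, CASAVA and the build hg38 are named in the submitters' processing notes, while the counting tool, its use of strand and its handling of multiply matching reads are not given in the sources used here. The authors deposited estimated counts per gene symbol, 70.4% of them whole, without normalization. A second deposited table held a normalized signal for 19591 genes, equal to 1 plus a library factor times the count, and gave those factors for an alternative.

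Counts were rounded and analysed in R 4.3.3 with edgeR 4.0.16. filterByExpr left 18226 genes, TMM factors scaled the libraries, and all 18 libraries entered 1 quasi-likelihood fit with 6 group coefficients. The same procedure was then run on data simulated from the means and dispersions of that fit. Adjustment of p-values (Benjamini-Hochberg) covered every gene tested, with a threshold of 0.05. The SE is the log2 fold change divided by the root of F. CPM are counts per 1000000 counts of the TMM-scaled library, and log2 CPM had a prior count of 2. Lengths came from GENCODE exons and promoters from RefSeq GRCh38.p14. Depth was 15.4 to 21.9 M counts. No batch is named in the labels.

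The members, lists and tests were chosen with earlier results of these data known. All members were named, and pathway genes could be named if past the threshold in a cytarabine effect or difference and averaging at least 1 in log2 CPM, starting with the largest effect of a list in each line. BMP3, SOST, DAND5, DLX5 and TBX2 were too low to test. Alternatives were DESeq2 1.42.0, the authors' factors, no filter, a mean of at least 50 counts, a fit of the compared groups alone, a replicate block and leaving out each library. Applying them to pathway genes was decided after seeing the data.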

Additional observations from a re-analysis of the deposited data

Results flagged for a closer look

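The cytarabine effect on SMAD6 differed between MUT and WT cells by 0.64 on the log2 scale (edgeR adjusted p = 0.0378), by a test of the difference itself. SMAD6 was lower in 3 of 3 treated WT libraries than in any untreated WT library, and 2 of 3 treated MUT libraries lay above every untreated MUT library. Treated and untreated WT libraries did not overlap for 65.3% of all tested genes.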

How the results depend on the processing

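Across 6 other analyses and 18 that left out 1 library each, the number of the 10 members called moved as follows. ATOH8 is included, and its calls in WT and MUT cells remain descriptions, since it was chosen on its responses there. With a mean of at least 50 counts, cytarabine in EV cells called 1 member, and with no filter on low counts MUT minus WT called 1, ATOH8 itself. Fitting the compared groups alone called 2 for cytarabine in MUT, 0 for MUT minus WT, 1 for WT minus EV, and 1 and 6 for untreated MUT and WT against EV. Leaving out 1 library gave 1 to 3 for cytarabine in EV, 2 to 6 in MUT, 0 to 2 for MUT minus WT, 0 to 1 for WT minus EV, 1 to 4 for untreated MUT minus EV and 1 to 4 for untreated WT minus EV. The other 3 counts (cytarabine in WT, MUT minus EV and untreated MUT minus WT) stayed within 1.5 times their value. Whether the replicate numbers pair the samples was not settled by the values. After removal of group means, same-numbered libraries correlated at -0.261 to 0.428, over 0.1 in 13 of 45 pairs. Under the replicate block, the 5 members called beside ATOH8 for cytarabine in WT kept their calls, as did SMAD6 for MUT minus WT. TWSG1 in WT (edgeR adjusted p = 0.0546) and BMPR1A in MUT (0.0585) lost theirs. Of the 24 alternatives, the TWSG1 call in WT held in 8 and the BMPR1A call in MUT in 4. Leaving out any 1 untreated MUT library ended the BMPR1A call.

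Changes of sign arose among uncalled effects near 0, as follows on the log2 scale. With a mean of at least 50 counts, ATOH8 in EV was 0.0135, SMAD7 and BAMBI in MUT minus EV were -0.0299 and -0.042, BMP2 in WT minus EV was -0.0083 and ID1 in untreated MUT minus WT was 0.0095. With the authors' factors, ID4 in EV was -0.0498, BMP2 in MUT was -0.0156, BAMBI in MUT minus EV was -0.0095 and ID1 in untreated MUT minus WT was 0.0406. With the compared groups alone, SMAD7 and BAMBI in MUT minus EV were -0.0014 and -0.0146, and with the replicate block BAMBI was -0.0056. With DESeq2, SMAD7 and BAMBI in MUT minus EV were -0.0221 and -0.0343, ID1 in MUT minus WT was -0.011 and in untreated MUT minus WT 0.0354. Leaving out 1 library, the cytarabine effect ran in EV from -0.20 to 0.11 for ATOH8 and -0.0403 to 0.0884 for ID4, and in MUT from -0.44 to 0.0675 for ID1, -0.0758 to 0.0259 for ID4 and -0.0265 to 0.18 for BMP2. MUT minus EV ran from -0.33 to 0.17 for ID1, -0.18 to 0.17 for ID2, -0.15 to 0.15 for ID3, -0.115 to 0.0129 for ID4, -0.0208 to 0.22 for SMAD6, -0.14 to 0.0898 for SMAD7, -0.0939 to 0.0986 for BAMBI and -0.18 to 0.0549 for BMP2. MUT minus WT ran from -0.22 to 0.29 for ID1 and -0.20 to 0.0123 for BMP2, and WT minus EV from -0.0993 to 0.16 for BMP2 and -0.0391 to 0.12 for BMP4. Untreated MUT minus EV ran from -0.0903 to 0.006 for SMAD6, -0.0601 to 0.16 for SMAD7 and -0.0021 to 0.23 for BMP2, WT minus EV from -0.17 to 0.0324 for ID2 and -0.21 to 0.0192 for BMP2, and MUT minus WT from -0.26 to 0.25 for ID1, -0.0719 to 0.23 for ID3 and -0.0264 to 0.0846 for BAMBI.

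Over all genes, MUT minus EV called 39, with 128 at a mean of at least 50 counts, 1 in the compared groups alone, 25 with the replicate block, 487 by DESeq2 and 8 to 666 with 1 library left out. MUT minus WT called 183, with 375, 51, 166 and 795 under the same settings and 38 to 810. WT minus EV called 52, with 32 by the authors' factors, 34 unfiltered, 278 in the compared groups alone, 132 by DESeq2 and 12 to 148. Untreated MUT minus EV called 3632 and 935 in the compared groups alone (2253 without untreated EV replicate 3), WT minus EV 2125 and 5101 (1385 without untreated EV replicate 2), and MUT minus WT 3872 and 1171. The calls named for the other pathway genes held in every analysis for 85 of 107, and none changed sign. ATOH8 had 21 to 219 counts in a library, so counting error adds to its spread.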
